A study of Mus musculus with 9 samples.

Results

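Tfrc, the gene of transferrin receptor 1, was followed across mouse fetal liver, adult liver and liver cancer through 1 probe of 60915 non-control probes on a 1-colour Agilent array that covers long non-coding and protein-coding RNA. The probe was found by its RefSeq accession, NM_011638.3, and was chosen for the role of the gene in erythroid and dividing cells of the liver. It was spotted 20 times on every array. Each of 9 RNA samples was hybridised to 1 array: 3 livers of embryos at day 17.5, 3 livers of male mice aged 2 months, and 3 liver cancer tissues of male mice aged 1 year. DEN (diethylnitrosamine, which causes liver tumours in mice) induced the cancers, and their histology was examined, per the design text. The strain, the sex of the embryos and the DEN dose are not given in the sources used here. Between adult liver and liver cancer, tumour tissue, DEN and age all change at once, and their effects cannot be told apart. Samples are called independent replicates, but no animal is named for any of them. The p-values below therefore measure the spread between these samples, which may be technical.

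Transferrin receptor 1 sits on the cell surface, binds iron-loaded transferrin from the blood and carries it into the cell, where the iron is released and the receptor returns to the surface. Erythroid precursors need it for haem synthesis, and dividing cells need it for iron enzymes. The fetal liver is a site of blood formation, whereas adult hepatocytes hold little of the receptor beside the related receptor gene Tfr2. The Tfrc mRNA is also stabilised when cells are short of iron, through iron-responsive elements that bind the proteins of Aco1 and Ireb2. Of 42 gene names of iron uptake, storage and control that were listed, older names included, Tfrc was the 1 with a probe named in the files. Of 42 markers of erythroid cells, hepatocytes, macrophages, dividing cells and other liver cells, 0 had a named probe. The labelled tissues could therefore not be checked against markers, and ligand, ferritins, exporter and regulators of the pathway were not analysed here.

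In RefSeq's annotation of GRCm38.p6, Tfrc lies on the plus strand at chr16:32608896-32632794 and has 2 transcripts with 2 starts, 226 bases apart. The array's design is annotated on mm9 per the file headers, so these coordinates serve to place the gene and not the probe. The 250 bases before the first start are shown as the promoter window that RefSeq's annotation gives for the gene. Which of the 2 transcripts the probe measures was not tested. Capitals mark CCAAT, the CCAAT box of many promoters.

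Tfrc, chr16:32608646-32608895, plus strand: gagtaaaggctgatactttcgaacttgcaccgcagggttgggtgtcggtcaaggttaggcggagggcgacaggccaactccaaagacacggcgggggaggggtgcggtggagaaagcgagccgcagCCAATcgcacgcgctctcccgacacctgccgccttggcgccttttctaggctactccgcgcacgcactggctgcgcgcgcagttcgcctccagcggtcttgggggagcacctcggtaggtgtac

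This stretch was 64.8% G and C, against a median of 52.4% over 32851 RefSeq windows of the same length. CCAAT stood once, 124 bases before the start, and 33.8% of windows hold it on either strand. The GC box, GGGCGG, had 0 matches on either strand, and 32.7% of windows hold it. The sequence TATAAA likewise had 0 matches, against 12.4% of windows. None of the motifs searched overlaps another here. ACGTG, the core of the element that hypoxia-inducible factors bind, began 2 bases before the start and is in capitals in the 30 bases around it.

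Tfrc, chr16:32608882-32608911, plus strand: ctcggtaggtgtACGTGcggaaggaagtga

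Within the windows of 300 bases that run 50 bases past the start, 19.6% hold ACGTG on either strand. These are matches of letters, and binding was not measured.

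The arrays fell into 2 scans per the file headers. All fetal and adult arrays were in the first scan together with liver cancer replicate 1, while replicates 2 and 3 of liver cancer were in the second. On the first scan 40.5% to 54.8% of probes were well above background, on the second 67.8% and 69.3%. The signal of the 75th percentile probe was 87.8 to 188 in the first scan, against 409 and 355 on liver cancer replicates 2 and 3. Per the file headers, the scanner software's multiplicative detrending was applied on 6 arrays but not on fetal replicate 2 or on liver cancer replicates 2 and 3. On raw median signals, which had neither this step nor background subtraction, the Tfrc differences described below were 3.30, 1.76 and -1.54 log2, all called. No spot was saturated. Levels given below are log2 processed signals minus the 75th percentile of their array, and the liver cancer mean combines both scans.

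Tfrc was bright on every array. All 20 spots were well above background on each of the 9 arrays, and the median raw spot signal was 206 to 3489 times that of its local background. The mean processed signal was 125214, 154322 and 116111 on the fetal arrays, 10125, 11360 and 11502 on the adult arrays, and 35681, 86683 and 75550 on the liver cancer arrays. Before any scaling, each fetal array thus lay above each liver cancer array, and each liver cancer array above each adult array. As a rank that needs no scaling, 37 to 57 probes were brighter than Tfrc on the fetal arrays, 384, 622 and 658 on the liver cancer arrays, and 911 to 1232 on the adult arrays. The order of the groups was the same, with no overlap.

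The repeated spots show how well an array measures this RNA. Between 16 and 20 spots per array were used, after spots marked as outliers by the scanner software were left out. Their SD was 0.07 to 0.10 log2, and the brightest used spot was at most 1.29 times the dimmest. The standard error of an array's mean over spots was therefore 0.02 log2 on each array. Spots in the upper part of the array and those in the lower part differed by -0.09 to 0.08 log2, with 5 to 8 and 11 or 12 spots used. A single marked spot stood far out, at 20373 on liver cancer replicate 1 against 30704 to 39642 for the spots used there. Spots of an array share its RNA, so this spread is technical and is not the spread between samples.

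**Figure D1:**
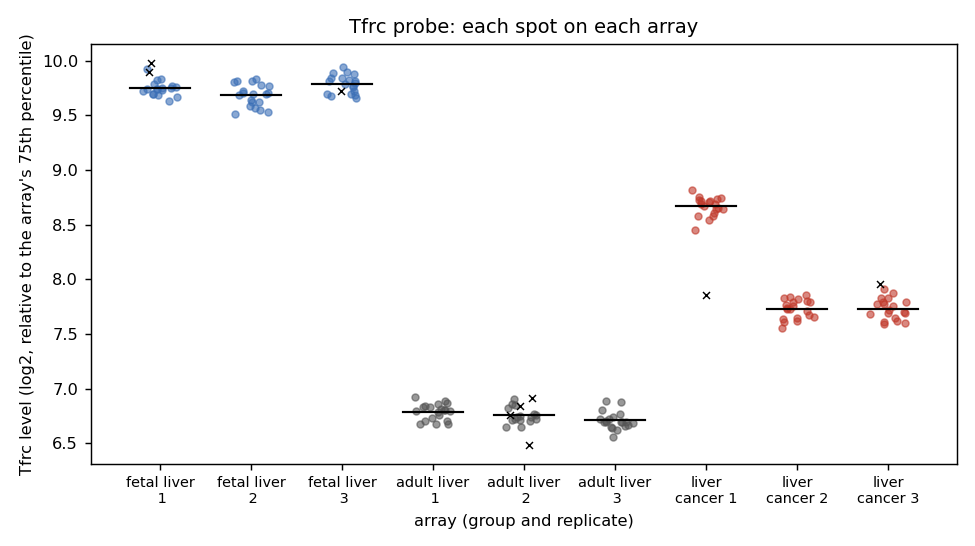
Tfrc level (vertical axis, log2 relative to each array's 75th percentile) for every spot on each of the 9 arrays (horizontal axis); filled points are spots used, crosses are spots marked as outliers, and a bar is the mean of the used spots. Fetal liver lies near 9.74 and adult liver near 6.75, while liver cancer replicate 1 lies at 8.67 and replicates 2 and 3 at 7.73.

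After scaling, the Tfrc level was 9.75, 9.68 and 9.79 on the fetal arrays, 6.79, 6.75 and 6.71 on the adult arrays, and 8.67, 7.73 and 7.73 on the liver cancer arrays. The groups did not overlap, in the order fetal liver, liver cancer, adult liver. This order without overlap held on 4.42% of the 34103 probes tested. The SD between samples was 0.05 for fetal, 0.04 for adult and 0.54 for cancer tissue (n = 3 each). The liver cancer arrays thus spread more widely than those of the other groups. Tested probes as a whole did so too, with a median SD of 0.20 for fetal, 0.21 for adult and 0.47 for cancer tissue. Liver cancer replicate 1 (8.67) was in the first scan with detrending, and replicates 2 and 3 (7.73 each) in the second without it. Spread between tumours therefore cannot be told apart from scan and detrending. The SD of Tfrc exceeded that of 58.2% of tested probes in liver cancer, 6.39% in fetal liver and 4.83% in adult liver. Apart from the 15 probes with RefSeq accessions, tested probes have 1 spot each, so shares of probes given here set a mean over spots against single spots.

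The study looked for transcripts shared by fetal liver and liver cancer, and the first comparison is that of fetal with adult liver. Tfrc was 7.94-fold higher in fetal liver (95% interval 5.25 to 12.0; log2 difference 2.99 ± 0.26 (SE, n = 3 per group), limma adjusted p = 1.55e-05). Its lowest fetal array stood 2.89 log2 above its highest adult array. At the same threshold, an adjusted p below 0.05 and a change of at least 2-fold, 21.2% of tested probes were higher in fetal liver and 18.4% lower (39.6% in all). A difference at least as large in this direction was measured on 4.64% of the other tested probes, 1583 in number. No overlap in this direction was seen on 33.5%. RNA was taken from whole tissue, so more cells with the receptor and more Tfrc RNA per cell cannot be told apart. All 6 arrays belong to the first scan. The SE and the interval, however, come from a model that also holds the liver cancer arrays of both scans. The SD between samples was 0.05 in fetal liver and 0.04 in adult liver, against 0.54 in liver cancer. Fitted on the fetal and adult groups alone, the SE was 0.11.

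The second comparison set the tumours against adult liver. Tfrc was 2.45-fold higher in liver cancer (95% interval 1.62 to 3.70; 1.29 ± 0.26 (SE, n = 3 per group), limma adjusted p = 0.006). Fitted on these 2 groups alone, the SE was 0.31 (limma adjusted p = 0.0273). The 3 liver cancer arrays stood 3.77, 1.97 and 1.97 times above the adult mean, and the lowest of them was 0.94 log2 above the highest adult array. In this comparison 11.6% of tested probes were called higher and 12.5% lower (24.1% in all), and on 10.6% of the others the difference was at least as large in this direction. No overlap in this direction was seen on 21.5%. Within the first scan, liver cancer has only replicate 1, whose spread is taken from the other groups. There the difference was 1.92 ± 0.15 (limma adjusted p = 0.000607), and 18.2% of probes were called in either direction. Without liver cancer replicate 1 it was 0.98, below the minimum of 1 log2, with an adjusted p of 0.00041. Scaled to the array median it was 1.01 and did not pass (limma adjusted p = 0.0616).

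The third comparison set the tumours against fetal liver. Tfrc was 3.24-fold lower in liver cancer (95% interval 2.15 to 4.90; -1.70 ± 0.26 (SE, n = 3 per group), limma adjusted p = 0.000552). Fitted on these 2 groups alone, the SE was 0.31 (limma adjusted p = 0.00357). The highest liver cancer array stood 1.02 log2 below the lowest fetal array. Here 22.0% of tested probes were called lower in liver cancer and 20.4% higher (42.4% in all), and 14.0% of the others were at least as far below fetal liver. No overlap in this direction was seen on 29.0%. Within the first scan the difference was -1.07 ± 0.15 (limma adjusted p = 0.0017). On the log2 scale the liver cancer mean lay 43.2% of the way from adult to fetal liver. The single arrays lay at 64.1%, 32.7% and 32.8% of that distance, so replicate 1 stood apart from the other two. In linear terms the liver cancer mean was 30.8% of the fetal mean and the adult mean was 12.6%.

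As a test of the single value, an exact permutation test over arrays gave p = 0.1 for each of the 3 comparisons (two-sided), which is the smallest p that 3 arrays against 3 allow. All 3 differences together, higher in fetal liver and in liver cancer than in adult liver and lower in the tumours than in the fetus, were called on 531 tested probes (1.56%), Tfrc among them.

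**Figure D2:**
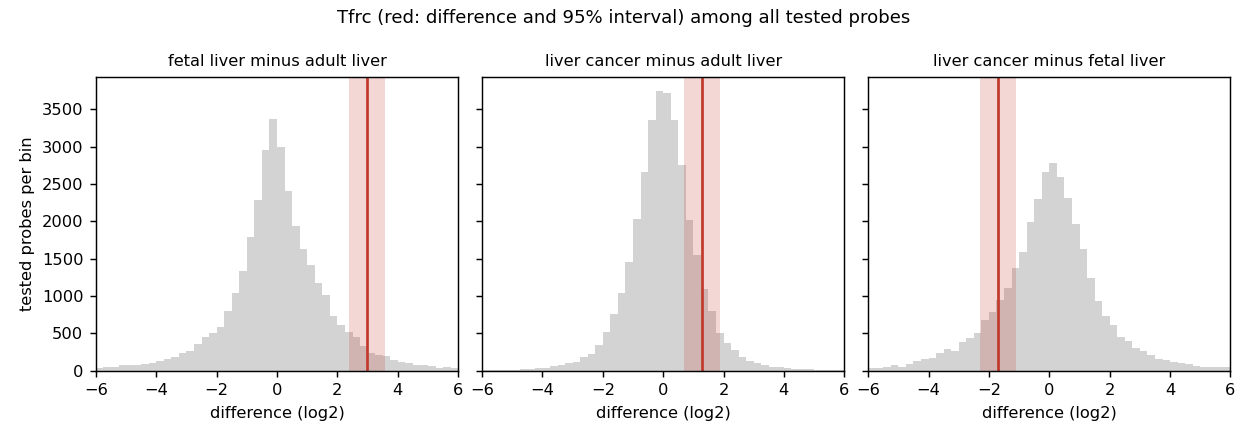
Number of tested probes (vertical axis) by their log2 difference (horizontal axis, in bins of 0.25 log2 and shown from -6 to 6) for the 3 comparisons; the red line is Tfrc and the red band its 95% interval from limma. Tfrc lies in the upper tail for fetal minus adult liver at 2.99, and closer to the bulk of probes at 1.29 and -1.70 in the comparisons with liver cancer.

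The distance between the liver cancer arrays depended on what each array was scaled to. Of the 14 other genes with a named probe, 8 that are widely used as references were chosen for scaling. These were Actb (cytoplasmic actin), B2m (light chain of class I molecules), Gapdh (a glycolytic enzyme) and Gusb (a lysosomal enzyme). With them went Hprt (purine salvage), Ppia (a prolyl isomerase), Rpl13a (a ribosomal protein) and Tbp (the TATA-binding protein). Scaled to the mean of these 8 genes, Tfrc stood 1.54, 1.66 and 1.62 log2 above the adult mean on the 3 liver cancer arrays. Their SD was then 0.06 log2, against 0.54 with the 75th percentile and 0.80 with the array median. Fetal liver stood at 2.56, 2.67 and 2.57 above the adult mean in the same unit. The gap between liver cancer replicate 1 and the other two was thus not seen relative to the mean of these genes. With single genes replicate 1 could lie on the other side, as with Gapdh (1.72 against 2.25 and 2.15, SD 0.28) and Tbp (2.09 against 2.45 and 2.40, SD 0.19). Each of these genes was spotted 20 times, like Tfrc.

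Relative to the 8 genes together, the difference from adult liver was 2.60 ± 0.14 (SE, n = 3 per group) in fetal liver (limma adjusted p = 2.46e-06) and 1.61 ± 0.14 in liver cancer (limma adjusted p = 0.000151). Liver cancer lay 0.99 log2 below fetal liver, just short of the minimum of 1 (limma adjusted p = 0.000593). This scaling also moved all other probes. The median tested probe was then at -0.41 for fetal minus adult liver, 0.33 for liver cancer minus adult liver and 0.75 for liver cancer minus fetal liver. Measured from that median, Tfrc lay at 3.01, 1.28 and -1.74. Any scaling that shifts all probes of an array alike leaves these distances nearly the same by construction.

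Taken against 1 reference gene at a time, every liver cancer array stood above every adult array with each of the 8 genes. The difference from adult liver ranged from 0.73 with Actb to 2.31 with Tbp, and 6 of the 8 passed as calls. Every fetal array stood above every liver cancer array with 7 of the 8. The exception was Tbp, against which Tfrc was 0.51 log2 higher in liver cancer than in fetal liver, while the differences of -0.59 with Hprt, -0.27 with Rpl13a and -0.72 with Actb were below the minimum fold. Calls were made with the other 4 genes, at -1.31 with Gapdh, -1.36 with Gusb and -2.91 with B2m, with Ppia close to Gapdh. At the 75th percentile, Tbp itself was called lower in the tumours than in fetal liver (-2.21 ± 0.33, limma adjusted p = 0.000458). Hprt (-1.11 ± 0.26) and Rpl13a (-1.43 ± 0.25) were also called lower, and B2m was called higher (1.21 ± 0.25). Actb, Gapdh, Gusb and Ppia were not called in this comparison. Of the named genes outside the 8, Tuba1b, G6pd2, Hsp90ab1 and Nono lay further below fetal liver in liver cancer than Tfrc (-2.09, -1.88, -2.39 and -2.38). Ldhal6b and Gk lay above fetal liver (3.57 and 2.96). Scaling to single genes outside the 8 was not tested, so the order relative to those genes is not given. Fetal liver against adult liver was called with all 8 reference genes, from 1.06 with Rpl13a to 4.63 with B2m. These extremes came with genes that themselves differed between those 2 groups, Rpl13a by 1.93 and B2m by -1.64. Actb, Rpl13a, Ppia and Gapdh have near-identical copies in the genome, whose signal may be included.

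**Figure D3:**
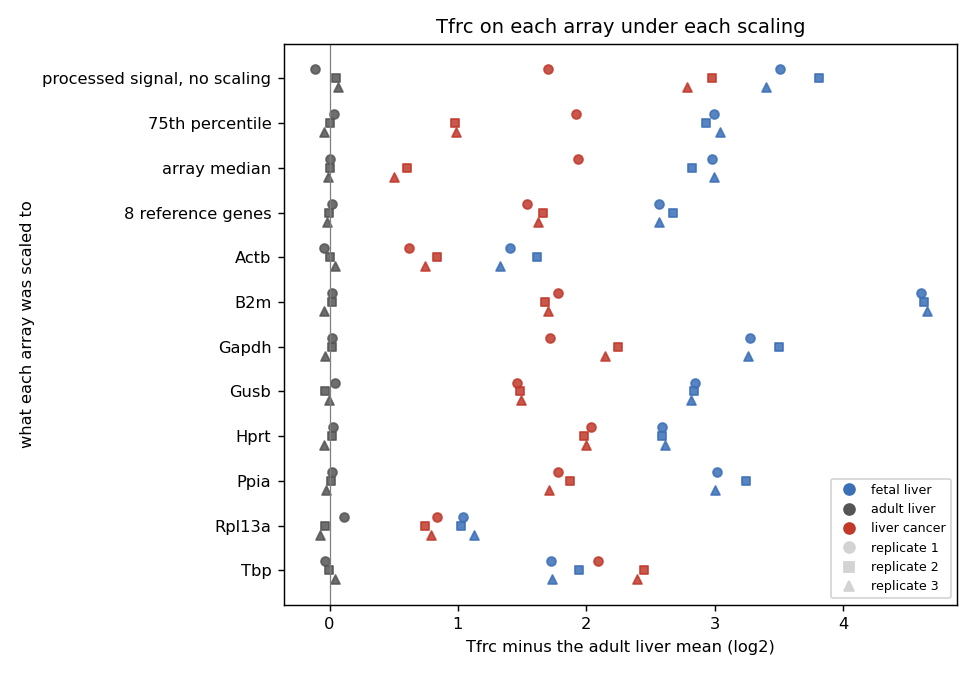
Tfrc on each array minus the mean of the adult arrays (horizontal axis, log2), with a row for each quantity the arrays were scaled to (vertical axis); colour gives the group and marker shape the replicate. With the 75th percentile, liver cancer replicate 1 lies at 1.92 and replicates 2 and 3 at 0.98, whereas against the 8 reference genes the 3 arrays lie between 1.54 and 1.66.

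Control probes of the array maker moved with the liver cancer group as well. Probes named Mouse-PGK1_3 and Mouse-PGK1_5 carry the name of the same gene. The digits may mark opposite ends of its mRNA, in which case the difference between the probes would vary with RNA quality, but the labels do not say what they mean. The first exceeded the second by 4.74 ± 0.08 log2 on the fetal arrays, 5.07 ± 0.04 on the adult arrays and 6.53 ± 0.07 on the liver cancer arrays (SD, n = 3 each). For the corresponding Mouse-GAPDH probes the difference was 0.76 ± 0.03, 1.20 ± 0.03 and 1.41 ± 0.17. The 3 groups did not overlap in either pair, with an exact permutation p of 0.1 for each of 6 comparisons (two-sided, 0.1 after Benjamini-Hochberg). The second scan holds only liver cancer arrays, so within a scan only liver cancer replicate 1 can be set against the other groups. The liver cancer arrays were the highest in both pairs, replicate 1 included, and fetal liver the lowest. The part of this shift in the liver cancer level of Tfrc was not tested.

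The other genes named in the files were ranked by how closely their levels followed Tfrc over the 9 arrays, as the root mean square difference of centred log2 levels. Nearest of 14 was Tuba1b, an alpha-tubulin of the cytoskeleton (0.27 log2), followed by G6pd2, a glucose-6-phosphate dehydrogenase gene (0.35), and Rpl13a, a ribosomal protein gene (0.45). The median over 33243 tested probes with values on all arrays was 1.39, and 57 of them, 0.171%, were nearer to Tfrc than Tuba1b. The nearest probe of all, at 0.09, carried no gene name. Furthest of the 14 named genes were Ldhal6b (2.63) and Gk, glycerol kinase (2.73), both called lower in fetal than in adult liver. The arrays share their group structure, so likeness largely repeats the group means and is a description.

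The likeness differed from group to group. Tuba1b was at 10.57, 10.31 and 10.70 on the fetal arrays, 7.35, 7.20 and 7.11 on the adult arrays, and 9.55, 7.84 and 7.92 on the liver cancer arrays. It thus shared with Tfrc the high liver cancer replicate 1, but so did named genes unlike Tfrc. Of all other named genes, only Ldhal6b and Gk did not have replicate 1 as their highest liver cancer array. Tuba1b was called between fetal and adult liver (3.31 ± 0.41) but not between liver cancer and adult liver (1.22 ± 0.41, limma adjusted p = 0.0524). G6pd2 was at 0.39, 0.30 and 0.16 on the liver cancer arrays and -0.37 ± 0.09 (SD, n = 3) in adult liver. In contrast to Tfrc it did not set replicate 1 apart, and its difference of 0.65 ± 0.17 from adult liver was below the minimum fold. Rpl13a lay at 6.10, 5.25 and 5.21 in liver cancer against 5.02 ± 0.07 in adult liver, with replicate 1 again the highest. Each of the 3 has close copies elsewhere in the genome, so its values are uncertain.

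**Figure D4:**
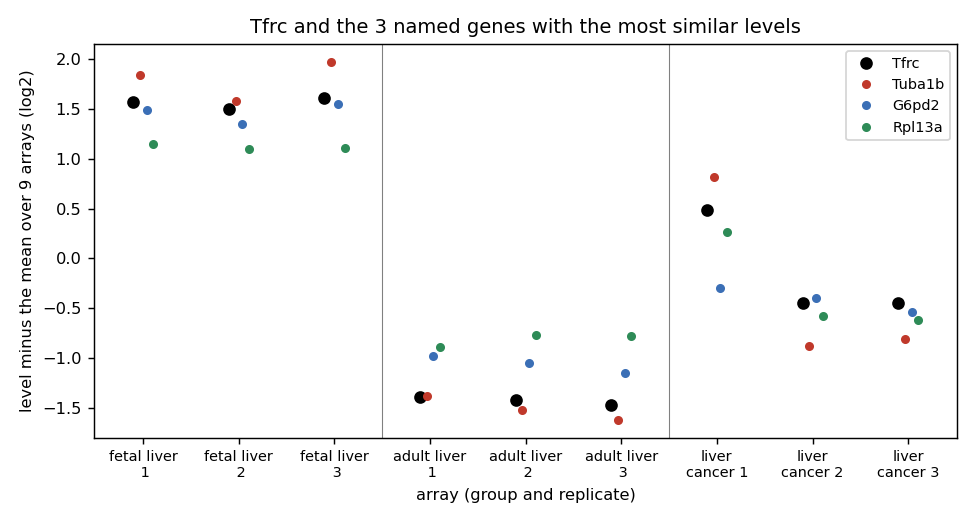
Levels of Tfrc and of the 3 named genes nearest to it, each minus its own mean over the 9 arrays (vertical axis, log2), by array (horizontal axis, grouped by tissue). All 4 genes are highest in fetal liver and lowest in adult liver, and in liver cancer Tuba1b spreads more widely between replicate 1 and the others than Tfrc, while G6pd2 does not.

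Among 510 probes with lincRNA names (long intergenic non-coding RNA), the nearest to Tfrc were less alike than these genes. These probes have 1 spot each, which adds spot noise to their distance. MM9LINCRNAEXON11564+_P1 had a root mean square difference of 0.57 log2. It was at least 2.82-fold higher in fetal liver than in adult liver, where it was not well above background on any array. The bound sets the fetal mean against the dimmest detected probe of each adult array, and the measured means were -0.72 ± 0.10 and -4.15 ± 0.19 (SD, n = 3; limma adjusted p = 4.08e-06). In liver cancer it was well above background on 2 of 3 arrays, at a mean of -3.28. humanlincRNA1006-_P1 (0.74) had levels of 0.01 ± 0.28 (fetal), -2.21 ± 0.53 (adult) and -1.15 ± 0.73 (liver cancer). humanlincRNA2438+_P1 (0.74) measured 6.27 ± 0.06, 5.05 ± 0.09 and 5.41 ± 0.18. These last 2 probes did not pass between liver cancer and adult liver, at 1.06 and 0.36 log2 (limma adjusted p = 0.0717 and 0.156). For the first probe no bound could be given for that comparison.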

How the data were processed

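RNA from 3 fetal livers, 3 adult livers and 3 liver cancers was measured on 9 arrays of 62939 spots. The authors deposited intensity values from Agilent Feature Extraction 11.0.1.1, per the file headers: background-subtracted processed signals, detrended on 6 of 9 arrays and not scaled between arrays, and raw median signals.

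Control spots (1439), 300 spots whose names mark them as negative controls, and spots with an outlier mark (0.310% to 1.43% per array) were left out. Log2 signals were averaged over the spots of a probe, and the 75th percentile of the array was subtracted. Testing needed signal well above background on at least 3 of 9 arrays and at least 2 usable arrays in every group, and 34103 of 60915 probes met this. Differences came from limma 3.58.1 (R 4.3.3), 1 model with a mean for each group and no block, with Benjamini-Hochberg adjustment. A call needs an adjusted p below 0.05 and at least 1 log2. The code was tested on simulated data. Alternatives covered scaling, background correction (normexp, offset 50, on raw medians), filters, weights, blocks and left-out arrays. Besides Tfrc, the text names the 8 reference genes, the 3 nearest named genes, the 2 furthest and the 3 nearest lincRNA-named probes. Hsp90ab1 and Nono are named as the remaining genes with a named probe. The 2 furthest, Hsp90ab1 and Nono were chosen after their values were seen. The gene and all lists were chosen with earlier results of these data known. Gene names and promoter windows come from RefSeq tables of GRCm38.p6. Precision is limited by the number of arrays.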

Additional observations from a re-analysis of the deposited data

How the results depend on the processing

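Besides leaving out arrays, 35 alternatives were run. Some left the Tfrc differences unchanged and so bear only on their error: the signal floor, the filters, 2 groups alone, the replicate block, treat and variants of limma's variance estimate. For liver cancer, the scan block and the first scan alone gave the same differences, 1.92 and -1.07, which rest on replicate 1. Tfrc kept its call in all 35 for fetal against adult liver (1.06 to 4.63 log2), in 31 for liver cancer against adult liver (0.73 to 2.49, the highest unscaled) and in 28 for liver cancer against fetal liver (-2.91 with B2m to 0.51). Liver cancer against adult liver lost it with the array median (1.01), scaled to Actb (0.73) or Rpl13a (0.79), and by treat against a 1.5-fold change (1.29, limma adjusted p = 0.0822). Liver cancer against fetal liver lost it without scaling (-1.09), scaled to the 8 reference genes (-0.99), Actb (-0.72), Hprt (-0.59), Rpl13a (-0.27) or the 1 of 10 E1A control probes above background on all arrays (-0.90), and turned to 0.51 with Tbp. Leaving out 1 array gave 2.96 to 3.02, 0.98 to 1.45 and -2.01 to -1.54, and ended 1 call, liver cancer against adult liver without liver cancer replicate 1 (0.98). The replicate block left 2.99, 1.29 and -1.70 (limma adjusted p = 9.01e-05, 0.0104 and 0.00134) and changed no call. Same-numbered samples deviated together at correlations of -0.16 to 0.31, which cannot decide whether they are paired. The highest was for replicate 2 of liver cancer and of fetal liver, both arrays without multiplicative detrending. Over all probes, calls numbered 13489, 8205 and 14462 in the 3 comparisons, and 7189, 4558 and 7846 among probes above background on every array. Fetal against adult liver gave 8911 unscaled, 22690 with Actb, 24578 with B2m, 25976 with Rpl13a, 7247 with E1A, 5949 with normexp, 7056 with normexp without an offset and 7309 with raw medians. Liver cancer against adult liver gave 14072 with Tbp, 2476 with E1A and 4382 by treat. Liver cancer against fetal liver gave 8608 unscaled, 23091 with Rpl13a, 27638 with Tbp and 9392 with E1A. Higher calls made up 53.5%, 48.2% and 48.1%, against 36.7%, 59.2% and 73.3% with the 8 reference genes, 72.5%, 92.9% and 65.6% unscaled, and 33.1% for liver cancer against adult liver with the array median. Over all scalings the range was 5.84% to 92.7%, 12.1% to 92.9% and 11.9% to 94.7%. Except where a setting tests fewer probes or sets a stricter threshold, the cause was not tested. Normexp without an offset, 2 further percentiles and the mean of the 14 other named genes are among the 35. They were added after seeing the data and kept all 3 calls.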
